A study of Mus musculus with 10 samples.

Results

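The 8 genes described here encode chromatin regulators: Arid1a, Mga, Asxl2, Rbbp5, Nsd2, Brd1, Phf20 and Dnmt3a. They were chosen by measured values, with differences in cutting between Mettl3 knockout and wild type in these same data in view, and every site of each gene was then taken. The 8 genes held 12 of the 1626 sites in the table, and each had at least 1. The study compared mouse embryonic stem cells (ESC) with embryoid bodies (EB), aggregates that differentiate in suspension, both as wild type (WT) and as Mettl3 knockout (KO, spelled Metll3-/- in the labels). The labels give 3 ESC WT, 3 ESC KO, 2 EB WT and 2 EB KO polyA RNA libraries. ESC had been moved from feeder fibroblasts onto gelatin and into serum-free medium with LIF, CHIR99021 and PD0325901; EB were kept for 9 days in medium with serum and none of these factors. The labels name neither the knockout clone nor whether the libraries came from separate cultures. The table gives 1 value per site and group, with no value per library and no read depth, so no difference below carries a replicate error or a test. It holds no expression values, so neither the knockout nor the cell types could be checked against marker genes.

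As background, Mettl3 is the catalytic subunit of the complex that writes N6-methyladenosine (m6A), the most common internal mark on messenger RNA, which readers use to shorten an RNA's life or change its processing. m6A is common in long exons and around stop codons and scarce close to exon junctions. The readout is a cleavage efficiency, a fraction that runs from 0 for an ACA that is never cut to 1 for one that is always cut. The bacterial RNase MazF cuts before ACA and is blocked by m6A on the first A, so less cutting in WT than in KO is the pattern of a methylated site; no label used here names the enzyme. The proteins of the 8 genes act at successive layers of chromatin: nucleosome remodelling, Polycomb repression and histone deubiquitination, histone methylation and acetylation, and DNA methylation. Several of them are needed for stem cells to leave or hold the pluripotent state.

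Part of the text below groups sites by the second base before the cut A and gives the GC content around the Arid1a sites. The sequences around the cut are therefore shown for the 9 sites with a WT and a KO value in at least 1 stage. Each is a window of 29 bases of the matched GENCODE transcript, 5′ to 3′, with the cut A at its centre. Capitals mark the 2 bases before the cut A, that A and the CA after it, GGACA or AGACA.
Arid1a site 1: gctcacaatgaaAGACAttggaaccccgg
Arid1a site 2: tctggcccagggGGACAgcctggcagccc
Arid1a site 3: gtcacggctgttGGACAtctccgtgtcac
Mga site 2: gttgggtcaattGGACAcaaaatgaattt
Rbbp5: caggtagcctttGGACAgcgtggccaatc
Nsd2: ggttgccaaaagGGACAtcagaaaaggag
Brd1: gtgccttcaaaaAGACAgacgatgaccgc
Phf20: ctggaacccaaaGGACAgcattttctacc
Dnmt3a site 1: cttgtgtgtaagGGACAtgggggcaaact

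GGACA was the sequence at 7 of the 12 sites (58.3%, against 62.5% of all 1626), and the other 5 had AGACA. Coding sequence (CDS) held 8 sites and the 3′ UTR 4, and the shares of these regions over all sites were not taken. The last exon held 8 of the 12 (66.7%), against 48.2% of the 1423 sites that could be assigned to a gene, and 8 of the 12 lay more than 100 nt from the nearest exon junction, against 70.2% of the 1392 sites in transcripts with a junction. Within 200 nt of the stop codon's last base, before or after it, lay 5 of 12, against 26.4% of the 1423. The deposited classes CellRep_high, CellRep_intermediate, highest and CellRep_low held 6, 4, 2 and 0 of the sites. Their shares of all sites were 47.4%, 30.2%, 7.07% and 15.3%, in the same order. The sources used here do not say how the classes were made.

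A site below 0.30 in WT and above 0.75 in KO was listed for 5 of the 8 genes in ESC (Arid1a, Mga, Brd1, Rbbp5 and Phf20) and for these and Dnmt3a in EB. Counted as sites with both values, these were 5 of 8 in ESC and 6 of 8 in EB. Over all sites with both values, 10.8% in ESC and 7.84% in EB had this pattern. The bounds were set after the members' values were seen. "Higher" and "lower" mean a difference of at least 0.10 from here on. In ESC, 8 member sites had a value in WT and KO; KO was higher at 7 of them and lower at 1, whereas over all 1046 such sites in the data 55.4% were higher and 2.58% lower. In EB, 7 of 8 were higher and none was lower, against 41.9% and 5.96% of 855 sites. The median KO minus WT difference of the member sites was 0.729 in ESC and 0.727 in EB, beside 0.130 and 0.0638 over all sites. The genes were selected on these differences, so counts, medians and the ranks given below are a description and nothing is read from their distance to the background.

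**Figure D1:**
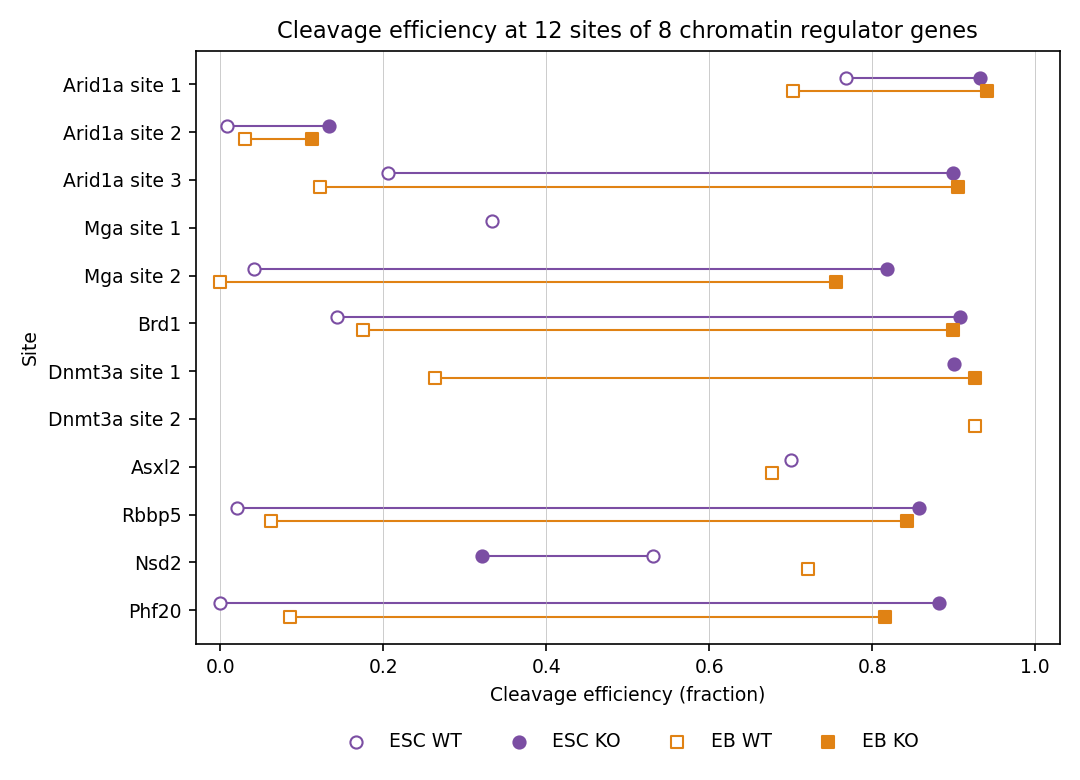
Cleavage efficiency (fraction, horizontal axis) at the 12 sites (vertical axis), with ESC as purple circles and EB as orange squares, WT open and KO filled, and a line joining WT and KO of 1 stage. The 5 single sites of Arid1a (site 3), Mga (site 2), Brd1, Rbbp5 and Phf20 run from at most 0.205 in WT to at least 0.756 in KO, Arid1a site 2 stays at or below 0.133 in all 4 groups, and Nsd2 lies lower in KO than in WT.

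Arid1a encodes the DNA-binding subunit that defines the BAF form of the SWI/SNF nucleosome remodelling complex. Its 3 sites lie on the minus strand of chromosome 4 in mm9, at 133240794 (site 1), 133236571 (site 2) and 133236325 (site 3), all in the CDS. Site 3, a GGACA 79 nt before the end of the CDS in the last of 20 exons, was cut to 0.205 in ESC WT and 0.899 in ESC KO, and to 0.122 and 0.905 in the EB columns. Both WT values were far below both KO values, with differences of 0.694 in ESC and 0.783 in EB; in EB 15 of 855 sites had a larger one. Site 2, a GGACA 246 nt upstream in the same exon, was at 0.00826 (ESC WT), 0.133 (ESC KO), 0.0299 (EB WT) and 0.112 (EB KO). It was little cut in every group, and 11.3% of all ESC KO values were lower than its own. Site 1, an AGACA in exon 18 only 6 nt from a junction, was well cut everywhere, at 0.768 and 0.932 in ESC WT and KO and at 0.702 and 0.940 in EB WT and KO.

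Arid1a site 1, already cut in WT, had differences of 0.164 in ESC and 0.238 in EB, and site 2, hardly cut even in KO, had 0.125 and 0.0823. The difference thus spanned 0.569 in ESC and 0.701 in EB over the 3 sites of this gene. Relative to the KO value the order of the sites was another. The percent by which WT lay below KO, taken where KO was at least 0.10, was 93.8% in ESC and 73.4% in EB at site 2, 77.1% and 86.5% at site 3, and 17.6% and 25.3% at site 1. Over all sites the median of this reduction was 25.3% in ESC (947 sites) and 12.2% in EB (777 sites). At KO values between 0.10 and 0.20 it was 45.5% over 49 sites in ESC and 20.3% over 52 sites in EB. A small change in such a KO value moves the percentage far, and its error is unknown. The window of site 2 holds 75.9% G and C, against 58.6% at site 3 and 51.7% at site 1. Over 1058 gene-assigned sites the ESC KO efficiency had a Spearman rho of -0.323 with this GC content, across sites that share libraries; its median was 0.881 at windows of at most 48.3% GC and 0.674 at windows of at least 62.1%. The part of GC content in the low values of site 2 was not tested.

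Of the genes of Polycomb repression and histone deubiquitination, Mga had a KO value at 1 of its 2 sites and Asxl2 had none, so only Mga could be compared between WT and KO. Mga encodes a partner of Max that anchors a variant Polycomb repressive complex at its targets. Mga site 2, a GGACA in the last of 24 exons (CDS, 123 nt before its end, chromosome 2, position 119790578, plus strand), was at 0.0411 in ESC WT and 0.818 in ESC KO, and was listed at 0 in EB WT and at 0.756 in EB KO. It was almost uncut in both WT columns and mostly cut in both KO columns, with differences of 0.777 and 0.756. Mga site 1, an AGACA 1556 nt upstream in the transcript and 6 nt from a junction (CDS, exon 22, position 119786467), had a value in ESC WT alone, 0.333. Its WT value was thus higher than that of site 2, and no KO value was given to set beside it. Asxl2 encodes a partner of the deubiquitinase Bap1, which takes ubiquitin off histone H2A. Its only site, an AGACA in the last exon (chromosome 12, position 3502205, plus strand; CDS in 2 of 3 coding transcripts and 3′ UTR in the other), was at 0.700 in ESC WT and 0.676 in EB WT with no KO value. Most copies were cut in both WT columns, unlike at Mga site 2.

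Of the genes of histone methylation, Rbbp5 was cut less in WT than in KO in both stages. Nsd2 was cut more in WT in ESC, the only stage with both values. Rbbp5 encodes a core subunit of the complexes that methylate histone H3 at lysine 4. Its site, a GGACA in the 3′ UTR 51 nt after the end of the CDS (last of 14 exons, chromosome 1, position 134400420, plus strand), was at 0.0208 in WT and 0.857 in KO in ESC, and at 0.0625 and 0.842 in EB. The differences were 0.836 and 0.780. This site lies 80 nt from a junction. Of 289 gene-assigned sites within 100 nt of a junction, it had the largest difference in ESC, and their median was 0.0504. The 34 of those sites in last exons had a median of 0.116, and the 255 others 0.0434. In EB, among the 135 GGACA sites within 100 nt, 1 had a larger difference than Rbbp5.

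Nsd2 encodes a methyltransferase of histone H3 lysine 36. Its site, a GGACA in the CDS 11 nt from a junction (exon 18 of 23, a 270 nt exon, chromosome 5, position 34228290, plus strand), was at 0.531 in ESC WT, 0.321 in ESC KO and 0.721 in EB WT, with no EB KO value. WT was cut more than KO, with a difference of -0.209, the lowest of all 651 GGACA sites with both ESC values. Of all 1046 sites with both, 1042 had a larger difference, and the lowest was -0.366. In EB WT it was higher than in ESC WT by 0.191. The KO value in ESC lay below both WT values, and nothing in the EB columns shows whether that order holds there.

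Both genes of histone acetylation had a strong contrast. Brd1 encodes a scaffold of acetyltransferase complexes that act on histone H3. Its site is an AGACA in a long exon that is neither first nor last (CDS, exon 2 of 13, 1381 nt long, 518 nt from a junction, chromosome 15, position 88560271, minus strand), and it was at 0.143 in WT and 0.908 in KO in ESC, and at 0.175 and 0.899 in EB. The differences were 0.765 and 0.724, and they are among the values on which the gene was chosen. AGACA sites farther than 100 nt from a junction had a median of 0.119 in ESC (213 sites) and 0.0383 in EB (165 sites). AGACA sites at that distance in exons of at least 1000 nt other than the last numbered 24 in ESC and 20 in EB, with medians of 0.218 and 0.0507. Phf20 encodes a reader subunit of the NSL complex, which carries the acetyltransferase Kat8 for histone H4. Its site, a GGACA in the 3′ UTR 748 nt after the CDS (last of 18 exons, chromosome 2, position 156133920, plus strand), was listed at 0 in ESC WT and at 0.882 in KO, and had 0.0851 and 0.816 in EB. The differences were 0.882 and 0.731, and 6 of 1046 sites had a larger one in ESC.

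Dnmt3a encodes a DNA methyltransferase that sets new methylation as cells leave pluripotency. Dnmt3a site 1 is a GGACA whose A lies 4 nt after the end of the CDS (3′ UTR, last of 23 exons, chromosome 12, position 3907751, plus strand); its printed window contains the stop codon taa. It had no ESC WT value; ESC KO was at 0.900, EB WT at 0.264 and EB KO at 0.926. Both KO values were high and close to each other, and the EB difference was 0.662. Of 78 gene-assigned sites with EB values 1 to 100 nt after the CDS, 5 had a larger difference, and the median was 0.140. Dnmt3a site 2, an AGACA 852 nt downstream in the same 3′ UTR (position 3908603), had a value in EB WT alone, 0.926. In EB WT, the site at the stop codon was thus at 0.264 and the downstream site at 0.926. The 2 values are not like for like. Site 1 lies in the 3′ UTR of 4 coding transcripts and site 2 in that of 2. Their sequences also differ, GGACA and AGACA, and site 2 has no KO value to set beside it.

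**Figure D2:**
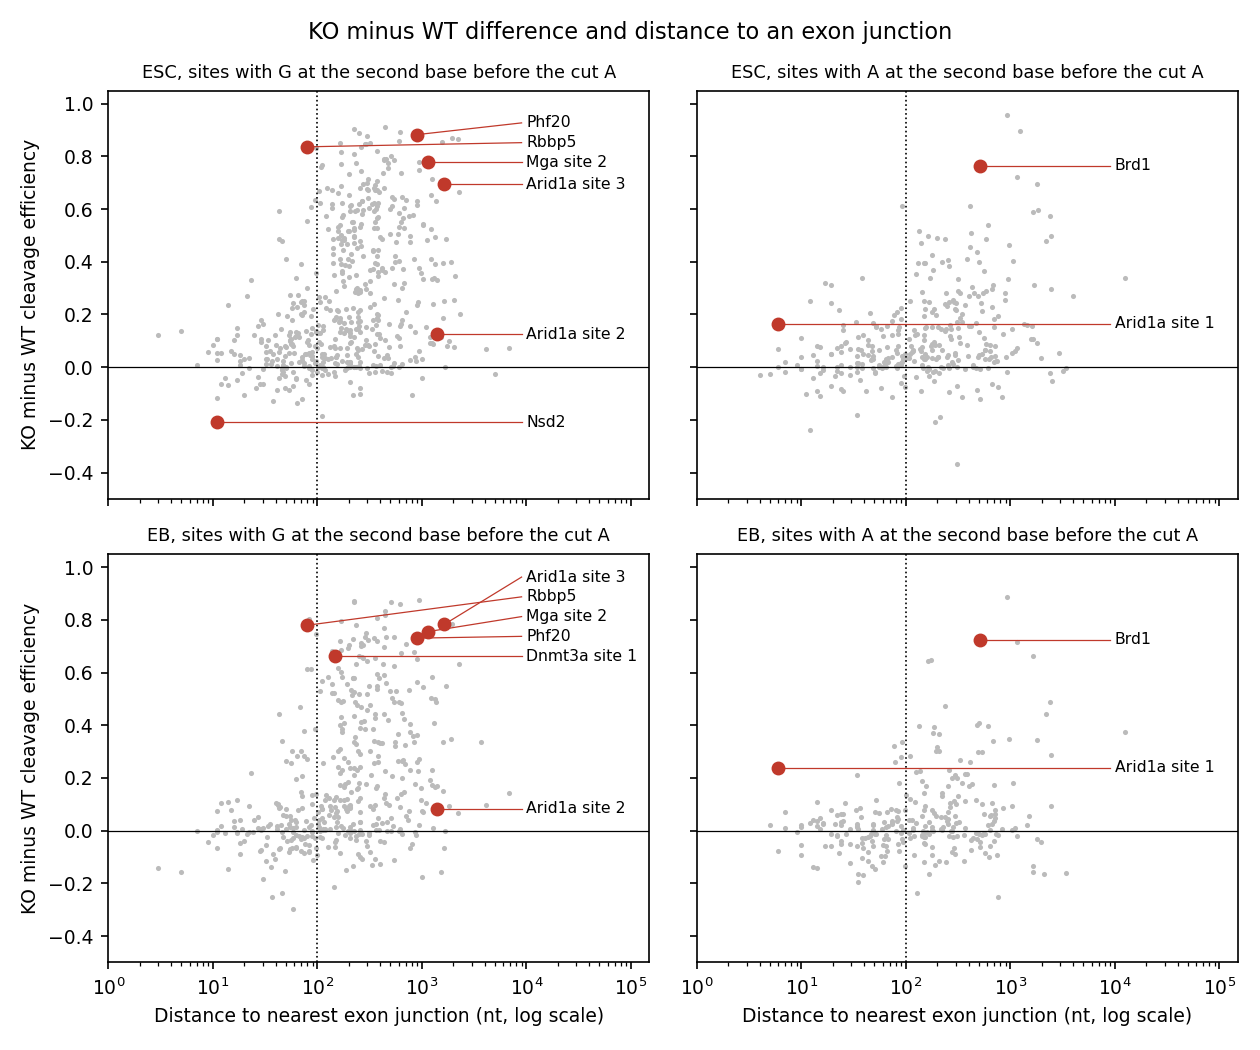
KO minus WT cleavage efficiency (vertical axis) against the distance to the nearest exon junction (nt, log scale), with ESC above and EB below, GGACA sites on the left and AGACA sites on the right; gene-assigned sites are grey, member sites red with their names, and the dotted line marks 100 nt. Rbbp5 is the highest ESC point within 100 nt of a junction, and Nsd2 is the lowest point of the ESC GGACA panel. Of the AGACA sites farther than 100 nt, 2 lie above Brd1 in ESC and 1 in EB.

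Median differences over the table varied with sequence and distance to a junction, and neither was tested as a cause. In ESC, GGACA sites farther than 100 nt from a junction had a median of 0.329 (387 sites), AGACA sites at that distance 0.119 (213), GGACA sites within 100 nt 0.0596 (160) and AGACA sites within 100 nt 0.0313 (129). In EB these medians were 0.228 and 0.0383 for the farther GGACA and AGACA sites, and 0.00584 and 0.00579 for those within 100 nt. Of the 4 members more than 100 nt away with GGACA and ESC values, Phf20, Mga site 2 and Arid1a site 3 lay above the median of their kind and Arid1a site 2 below it. Arid1a site 1 lay above the median of its kind in both stages, with 15 of 129 such sites larger in ESC and 4 of 116 in EB.

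Between ESC and EB most member sites differed by less than 0.10, and so did most of all sites. With KO alone, EB minus ESC ran from -0.0666 (Phf20) to 0.0259 (Dnmt3a site 1) over 8 sites, so none was higher or lower by 0.10; 7.1% of 845 sites were higher and 11.1% lower. As a measure of size, 95% of all sites differed by no more than 0.166 in this comparison, which joins measurement error with any effect of stage. KO minus WT was above that at 43.4% of all sites in ESC and 34.04% in EB, and at 5 of 8 and 7 of 8 member sites, which were chosen on it. In WT, EB minus ESC was higher at 1 of 9 member sites, Nsd2, and lower at none, while 26.4% of 1071 sites were higher and 5.51% lower. The member median was 0.0216, beside 0.0408 for all sites, and turned to -0.0747 when each column's median was subtracted. Individual values were -0.0833 for Arid1a site 3, -0.0657 for Arid1a site 1, -0.0411 for Mga site 2, -0.0235 for Asxl2, 0.0216 for Arid1a site 2, 0.0321 for Brd1, 0.0417 for Rbbp5, 0.0851 for Phf20 and 0.191 for Nsd2.

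The KO minus WT difference in EB less that in ESC was lower by at least 0.10 at 1 of 7 member sites, Phf20 at -0.152, and higher at none; 32% of 759 sites were lower and 5.53% higher. At Arid1a sites 1 and 3 it was 0.0742 and 0.0897, so the listed contrast was larger in EB there, but by less than 0.10. The other 4 lay between -0.0567 (Rbbp5) and -0.0215 (Mga site 2). The member median was -0.0415, beside -0.0446 over all sites, and turned to 0.0656 when each column's median was subtracted. The 2 stages have separate WT and KO columns, and no test of these differences was possible.

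Rbbp5 and Phf20 had nearly the same 4 values. By the largest difference over the 4 columns, the nearest site of another gene to Rbbp5 was that of Phf20 and the reverse, at 0.0263, among 656 gene-assigned sites with all 4 values. Brd1 was nearest to a site of Cant1 (0.0348), and Mga site 2 to one of the nuclear pore gene Nup98 (0.0524). Arid1a site 3 was nearest to Brd1 (0.0626). The members were chosen with KO minus WT differences from these same columns in view, so nearness between members partly follows from that choice. How near other sites usually lie to their nearest site was not taken. Whether the members share a trait beyond the choice was not tested.

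A list of 263 further genes of chromatin complexes had 64 sites in 54 genes. Of 43 sites compared in ESC, 26 (60.5%) were higher in KO, none was lower, and the median was 0.159. Of 41 in EB, 13 (31.7%) were higher, none was lower, and the median was 0.0151. Over all sites the shares were 55.4% and 41.9%, as above. The 6 genes with the largest ESC differences were the H3 lysine 9 demethylase gene Kdm3b (0.151 in WT and 0.823 in KO), the BAF subunit genes Bicral (0.0714 and 0.714) and Ss18 (0.317 and 0.951), the ISWI remodeller subunit gene Baz1b (0.296 and 0.915), Uhrf2, a relative of the DNA methylation factor Uhrf1 (0.119 and 0.726), and the bromodomain gene Brwd1 (0.315 and 0.911).

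In EB, Uhrf2 (0.154 in WT and 0.767 in KO) and Baz1b (0.333 and 0.857) had the largest differences. They were followed by the DNA demethylase gene Tet1 (0.348 and 0.747), the H4 lysine 20 methyltransferase gene Kmt5a (0.430 and 0.818), Ss18 (0.487 and 0.872) and the H3 lysine 4 demethylase gene Kdm5a (0.563 and 0.936). The sites of Kdm3b, Bicral and Brwd1 named for ESC lacked a value in at least 1 EB column, so no EB difference could be taken there. Sites of BAF and PBAF genes were unlike each other, as were those of the H3 lysine 4 methyltransferase complexes. The 7 other sites of BAF and PBAF genes with ESC values had a median of 0.0270 and a range of -0.0206 to 0.643, while the 3 of Arid1a ran from 0.125 to 0.694. The 4 other sites of the H3 lysine 4 methyltransferase complexes ranged from 0.0109 to 0.482, beside 0.836 for Rbbp5. Arid1a and Rbbp5 were chosen with this difference in view, so nothing is read from their place beside these ranges. By place and sequence, KO was higher in ESC at 12 of 13 GGACA sites of this list farther than 100 nt from a junction, 7 of 11 GGACA sites within 100 nt, 4 of 7 farther AGACA sites and 3 of 12 AGACA sites within 100 nt. In EB these counts were 5 of 11, 4 of 11, 3 of 7 and 1 of 12. Over all gene-assigned sites the shares were 74.9%, 39.4%, 53.5% and 24.8% in ESC and 63.8%, 22.2%, 35.2% and 10.3% in EB, in the same order.

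**Figure D3:**
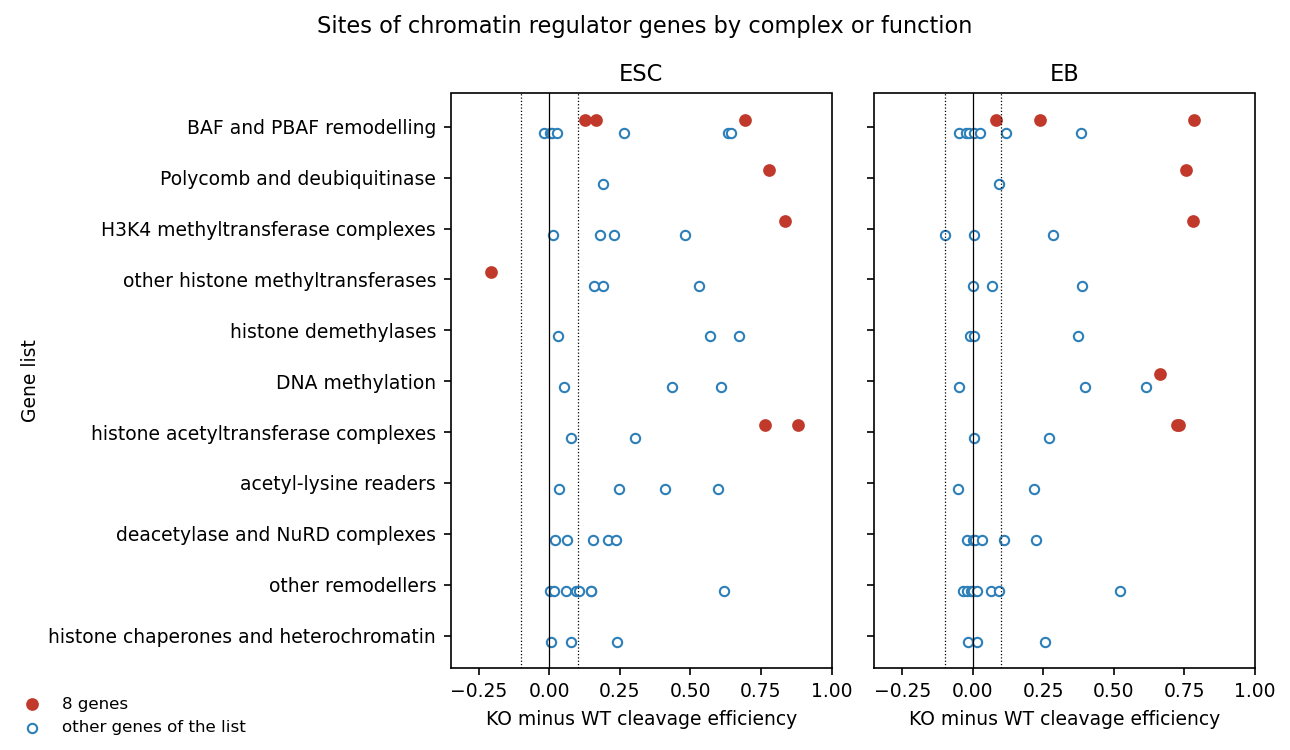
KO minus WT cleavage efficiency (horizontal axis) in ESC (left) and EB (right) for chromatin genes by complex or function (vertical axis), 1 point per site, with the 8 genes in red, the others as open blue circles and dotted lines at 0.10 in either direction. The open circles reach from -0.0206 to 0.672 in ESC and from -0.0970 to 0.613 in EB. The red points, of genes chosen with this difference in view, include values above these ranges in both panels. Nsd2 lies below the range in ESC, at -0.209.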

How the data were processed

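Per the labels, polyA RNA of 4 groups (10 libraries) was fragmented, ligated to adapters and reverse transcribed. The submitters' processing notes list STAR 2.5.3a, bedtools 2.26.0 and mm9 without saying what each was for. The deposited table gives a cleavage efficiency per site and group as a fraction. Its read counting, any minimum of reads, and how the libraries of a group were joined are not stated in these sources, so depth is unknown and no interval was made. The number of value columns left unassigned was 0.

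Sites were assigned to genes with GENCODE M21, which is on another build than mm9. The 11-base sequence (cut A at base 6) had to occur on the same chromosome and strand, at most 100 nt from the transcript position and 10 Mb from the genome position given. A single best gene was required, and its shift between builds had to recur at a different gene within the nearest 3 sites before or after. This assigned 1423 sites, 1473 before the last condition; the opposite strand matched 54. Of the 12 member sites, 7 matched at exactly the deposited position. Coordinates are those deposited (mm9), read as the 1-based position of the A. Regions, exons and distances come from the principal coding transcript, the printed windows from the best-matching one.

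Differences were taken on the fraction, with no filter and no pseudocount, in Python 3.11.15 with pandas 2.3.3, and were tested on simulated data. The planned limma fit needs a value per library and was not run. The members and all gene lists were chosen with earlier results of these data known. Genes outside the 8 were named by rule: the 6 largest upward differences of at least 0.10 per stage, any downward one of that size (there was none), and the site nearest in its 4 values to each member's leading site, the one with the largest mean KO minus WT difference. Alternatives were another scale, centring, size, match, summary and choice of sites.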

Additional observations from a re-analysis of the deposited data

How the results depend on the processing

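No paired analysis was possible because the columns carry no replicate number, and for the same reason no library could be left out. Leaving out each gene in turn, the member median of KO minus WT stayed between 0.694 and 0.777 in ESC and between 0.724 and 0.731 in EB. The ranges were -0.000972 to 0.0369 for EB minus ESC in WT, -0.0150 to -0.00931 for EB minus ESC in KO, and -0.0491 to -0.0315 for the difference of the KO effect. The genes were chosen with KO minus WT in view, so these ranges show only the weight of single genes in the medians. With the mean in place of the median KO minus WT was 0.504 in ESC and 0.594 in EB. With exactly matched sites alone the median was 0.429 in ESC and 0.756 in EB. In EB 4 of these sites were higher by 0.10, and the Arid1a site at 0.0823 was the only other compared. Brd1, Phf20 and Dnmt3a were not exactly matched and drop out of this EB count. With sites of all 4 values alone, 0 were lower in ESC, since Nsd2 drops out.

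Subtracting each column's median over 759 sites takes 0.373 from every KO minus WT difference in ESC and 0.266 in EB, genotype effect included. The member medians became 0.356 and 0.461. That of the difference of the KO effect turned from -0.0415 to 0.0656, and that of EB minus ESC in WT from 0.0216 to -0.0747. After centring, 3 of 8 member sites in ESC and 1 of 8 in EB were lower by 0.10. The amounts taken exceed the median differences over all sites, 0.130 in ESC and 0.0638 in EB. The share of all sites lower after centring was not taken, so nothing is read from these counts. The direction reversed at Arid1a site 1 (-0.209 in ESC, -0.0282 in EB) and site 2 (-0.248 and -0.184). A logit scale cannot turn the sign at a single site; the 5 member medians kept theirs on it. With exactly matched sites alone the WT median of EB minus ESC was -0.00975. Without read counts, values of 0 and differences near 0.10 cannot be told from sampling noise.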
